A study of Arabidopsis thaliana with 6 samples.

Results

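A set of 44 probe sets of the Affymetrix ATH1 array read near background in WT roots and higher in roots that lack NINJA. They were chosen by the measured values of all 6 arrays: the mean of the 3 WT values had to lie under 4 on the log2 scale, the *ninja-1* mean had to be at least 1 above it, which is 2-fold, and every *ninja-1* array had to lie above every WT array. Of 22746 probe sets, 8553 had a WT mean under 4 and 54 met all conditions, from which 10 were left out by their identifiers. Those 10 differed by 1.44 to 5.87, 6 of them by more than any member, so the 44 are not the strongest probe sets of this kind. Because these values made the choice, they are given here as a description of the 44 members, with no test. For comparison, every *ninja-1* array lay above every WT array in 7.75% of all probe sets, 0.835% were in addition at least 2-fold higher, and the 54 make up 0.631% of the probe sets with a WT mean under 4.

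Jasmonate (JA) is a lipid-derived hormone of wound and defence responses. Without it, JAZ proteins hold MYC transcription factors inactive and recruit the corepressor TOPLESS through the adaptor NINJA, so that target genes stay repressed. In roots this repression is known to hold JA responses down during undisturbed growth. Genes that are hardly transcribed under basal conditions and respond to JA include enzymes of specialised metabolism, defence proteins and components of the JA pathway itself.

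Roots of 5-day-old seedlings were collected from the Col-0 accession, either WT or carrying the loss-of-function allele *ninja-1*. Both genotypes held the *JAZ10pro-GUSPlus* (*JGP*) reporter and grew untreated on sterile agar medium at 21°C with 14 h of light. Each genotype had 3 biological replicates, each a pool of 120 roots on 1 array. Only 1 *ninja* allele was profiled, and in whole roots a change in the number of cells that express a gene and a change in RNA per cell cannot be told apart.

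The values were background-corrected by the authors with GCRMA, which sets probe sets without signal to a common floor. The lowest value was 2.11, array medians ran from 5.95 to 6.03, and the share of values within 0.05 of the floor was 26.5% to 27.0% on each array. Of 22 root and shoot marker genes looked up, 3 could be read under their own name. *EXPA7*, an expansin of root hairs, was at 8.76 ± 0.09 in WT and 8.91 ± 0.08 in *ninja-1* (SD, n = 3), while the stomatal genes *FAMA* and *SPCH* stayed at 2.11 on all 6 arrays. The *NINJA* transcript was not analysed here, because the annotation used does not name its probe set.

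Of the 44 members, 18 could be named by a single gene, 3 match a pair of genes each and 23 carry no name in the annotation used here. The WT means ran from 2.19 to 3.95 with a median of 3.11, and the *ninja-1* means from 3.29 to 6.80 with a median of 4.86. The difference between the means had a median of 1.64 on the log2 scale, against 0.00 over all probe sets, and reached 3.52. It was at least 2, or 4-fold, in 13 members, between 1.5 and 2 in 12 and under 1.5 in 19. In 8 members the *ninja-1* mean itself was still under 4, and in 13 every *ninja-1* array was above 5. Most members did not lie on the floor in WT: 6 had a WT array within 0.2 of it. Since background dominates such low values, each fold change given below is of uncertain size.

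**Figure D1:**
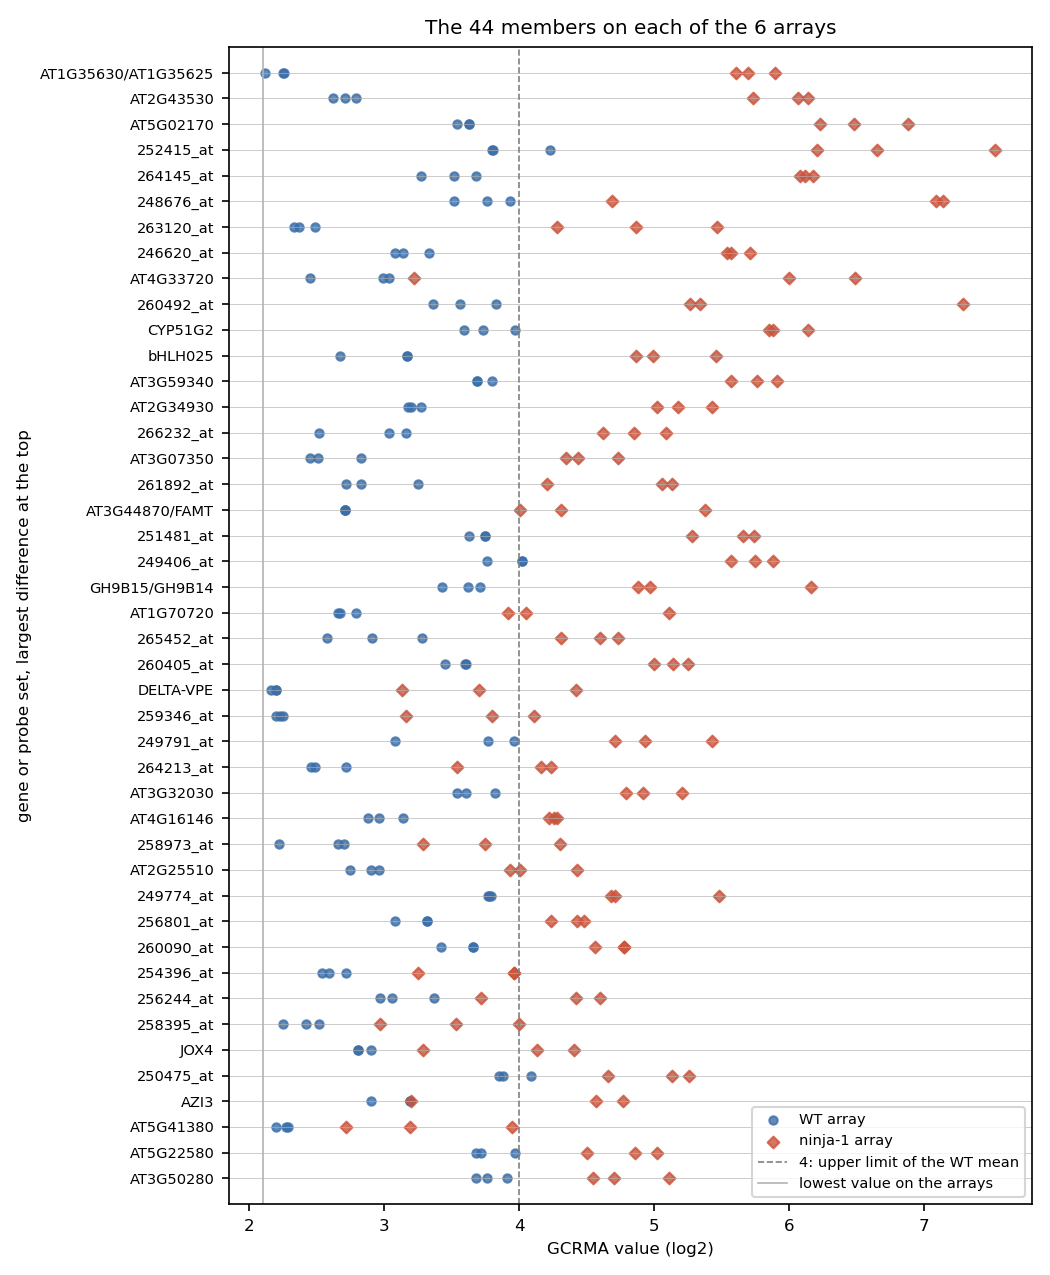
The GCRMA value (log2, horizontal axis) of each of the 44 members on the 3 WT arrays (circles) and the 3 *ninja-1* arrays (diamonds), ordered by the difference of the means. The dashed line marks 4, the upper limit set for the WT mean, and the grey line the lowest value on the arrays, 2.11. Differences run from 1.00 at the bottom to 3.52 at the top, and the *ninja-1* points of 14 members span more than 1.

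Among the members, the largest difference belonged to a probe set that matches both AT1G35630 and AT1G35625. They encode proteins with a RING/U-box domain, which is found in many ubiquitin ligases. Its values were 2.26, 2.25 and 2.12 in WT and 5.70, 5.61 and 5.90 in *ninja-1*. The *ninja-1* arrays lay close together and at least 3.34 above WT, and the means differed by 3.52 (standard error 0.10), or 11.5-fold. Which of the 2 genes gave the signal cannot be told from this probe set.

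Among regulators, the transcription factor gene AT4G37850 (*bHLH025*) read 3.17, 2.67 and 3.17 in WT and 4.87, 4.99 and 5.46 in *ninja-1*. Its mean was 2.1 higher (standard error 0.25), or 4.29-fold, with a gap of 1.70 between the groups. AT2G34930, for a leucine-rich repeat protein of the disease resistance type, read 3.27, 3.20 and 3.18 in WT against 5.02, 5.18 and 5.43 in *ninja-1*. Its difference was 2.00 (standard error 0.12). AT4G16146, for a protein related to cAMP-regulated phosphoprotein 19, had the narrowest *ninja-1* values of all members, 4.26, 4.22 and 4.28, against 3.14, 2.88 and 2.96 in WT. AT5G41380, for a protein with a CCT motif, a domain found in regulators of light and flowering responses, stayed low and scattered, with 2.20, 2.27 and 2.29 in WT and 3.95, 2.72 and 3.19 in *ninja-1*. Its 3 *ninja-1* values were all under 4.

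A second group holds genes for enzymes of small-molecule metabolism, or genes related to them. *CYP51G2* (AT2G17330) is annotated as a transcribed pseudogene related to sterol demethylases of the cytochrome P450 class. It read 3.73, 3.59 and 3.97 in WT and 5.85, 5.88 and 6.14 in *ninja-1*, a difference of 2.19 (standard error 0.14), or 4.58-fold. Its functional relative *CYP51G1* was not analysed here.

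A probe set for both *FAMT*, a farnesoic acid methyltransferase, and its neighbour AT3G44870 was at 2.71 on all 3 WT arrays and at 4.01, 5.38 and 4.31 in *ninja-1*. It was the only member with the same value on all 3 WT arrays, and its difference of 1.85 (standard error 0.41) came with a *ninja-1* range of 1.37. AT3G32030, of the terpenoid cyclase superfamily, read 3.82, 3.54 and 3.61 in WT and 5.21, 4.79 and 4.92 in *ninja-1*, a difference of 1.32 (standard error 0.15). The annotation names this gene alone, but the probe set, 256560_s_at, is of the type that can be shared by several transcripts. AT3G50280, for an acyltransferase of the HXXXD type, stood at the edge of the set, with 3.91, 3.68 and 3.76 in WT and 4.55, 5.11 and 4.70 in *ninja-1*.

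AT2G38240, known as *JOX4*, encodes a jasmonate-induced oxygenase that hydroxylates JA and so lowers the supply for the active hormone. It read 2.81, 2.90 and 2.81 in WT and 3.29, 4.13 and 4.41 in *ninja-1*, a difference of 1.10 (standard error 0.34). The groups were separated by 0.39, less than the spread of 1.12 among the *ninja-1* arrays.

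Several members encode proteins of defence. AT2G43530, for a defensin-like protein, a small cysteine-rich secreted peptide, had the second largest difference. It read 2.62, 2.79 and 2.71 in WT and 6.07, 6.14 and 5.73 in *ninja-1*, and the mean was 3.27 higher (standard error 0.14), or 9.66-fold.

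AT4G33720, of the PR1-like CAP superfamily of secreted proteins, was uneven: 2.45, 3.04 and 2.99 in WT but 6.49, 6.00 and 3.22 in *ninja-1*. Replicate 3 of *ninja-1* lay only 0.18 above the highest WT array, while the other 2 were far above it. AT4G12490 (*AZI3*), for a lipid transfer protein-like protein related to AZI1, also had its lowest *ninja-1* value in replicate 3, with 3.19, 3.19 and 2.90 in WT and 4.57, 4.77 and 3.20 in *ninja-1*. To 2 decimals its groups were separated by 0.00, the narrowest gap of the set. AT5G22580, for a stress-responsive protein with an A/B barrel, was at the lower edge, at 3.97, 3.68 and 3.72 in WT and 4.86, 5.02 and 4.5 in *ninja-1*.

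Transport, cell wall and protein turnover were each represented. AT5G02170, for an amino acid transporter of the membrane, had the third largest difference, with 3.63, 3.63 and 3.54 in WT and 6.48, 6.23 and 6.88 in *ninja-1*. The mean was 2.93 higher (standard error 0.19), or 7.61-fold. AT3G59340, for a membrane protein of the DUF914 class, read 3.69, 3.69 and 3.80 in WT and 5.91, 5.57 and 5.76 in *ninja-1*, a difference of 2.02 (standard error 0.11).

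A probe set shared by *GH9B14* and *GH9B15*, which encode glycosyl hydrolases of the endoglucanase family, was at 3.71, 3.62 and 3.43 in WT and 4.88, 4.97 and 6.16 in *ninja-1*, with replicate 3 well above the others. AT1G70720, for an inhibitor-like protein of invertases and pectin methylesterases, read 2.79, 2.66 and 2.67 in WT and 5.11, 4.05 and 3.92 in *ninja-1*, with replicate 1 well above the others and a difference of 1.65 (standard error 0.38). *DELTA-VPE*, a vacuolar processing enzyme described in the seed coat, had the lowest WT mean of the set, with 2.20, 2.20 and 2.16. It reached 3.70, 3.13 and 4.42 in *ninja-1*, a difference of 1.56 (standard error 0.37) with only replicate 3 above 4.

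The remaining named members have no described function: AT3G07350 (DUF506) read 2.45, 2.51 and 2.83 in WT and 4.73, 4.44 and 4.35 in *ninja-1*, and AT2G25510 read 2.96, 2.90 and 2.75 against 3.93, 4.01 and 4.43. The gap between the genotypes was 1.52 in the first and 0.97 in the second.

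Of the 23 members without a name, 7 were among the 15 with the largest differences. The probe set 264145_at was at 3.27, 3.68 and 3.52 in WT and at 6.12, 6.18 and 6.08 in *ninja-1*, and 246620_at at 3.33, 3.14 and 3.08 against 5.57, 5.71 and 5.54. Their *ninja-1* values spanned only 0.11 and 0.17, at differences of 2.64 and 2.42. The probe set 252415_at read 3.81, 3.80 and 4.23 in WT and 6.21, 6.65 and 7.53 in *ninja-1*, the highest *ninja-1* mean of the set (6.80).

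The probe set 263120_at rested near 2.4 in WT (2.49, 2.33 and 2.37) and read 4.87, 5.47 and 4.28 in *ninja-1*. The probe set 266232_at read 3.16, 3.04 and 2.52 against 5.09, 4.85 and 4.62. The other 2, 248676_at and 260492_at, differed strongly among the *ninja-1* arrays and are described below. The 16 unnamed members outside the largest 15 had differences of 1.08 to 1.87, from WT means of 2.23 to 3.94 to *ninja-1* means of 3.5 to 5.73.

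The members varied more among the *ninja-1* arrays than among the WT arrays. The standard deviation was larger in *ninja-1* in 34 of 44 members and its median was 0.32 against 0.14. The part of the array's floor and of the choice of members in this was not tested. The 3 *ninja-1* values spanned more than 1 in 14 members and at most 0.5 in 18. No *ninja-1* array was highest throughout: replicates 1, 2 and 3 were the highest in 13, 13 and 18 members and the lowest in 12, 13 and 19.

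Replicate 3 of *ninja-1* differed by at least 1 from the mean of the other 2 in 7 members, against 3 for replicate 1 and 4 for replicate 2. Over all probe sets the counts were 50 for replicate 3, 17 for replicate 1 and 10 for replicate 2. It lay below them in AT4G33720, *AZI3* and 248676_at, the last with 7.14, 7.09 and 4.69 in *ninja-1* after 3.93, 3.52 and 3.76 in WT. It lay above them in *DELTA-VPE*, the *GH9B14*/*GH9B15* probe set, 252415_at and 260492_at, the last with 5.34, 5.27 and 7.29 after 3.36, 3.83 and 3.56. Without replicate 3 the difference became 3.42 in place of 2.41 for AT4G33720, 3.38 in place of 2.57 for 248676_at and 1.73 in place of 2.39 for 260492_at. Without replicate 1, AT4G33720 differed by 1.78. What sets replicate 3 apart in these members was not tested.

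**Figure D2:**
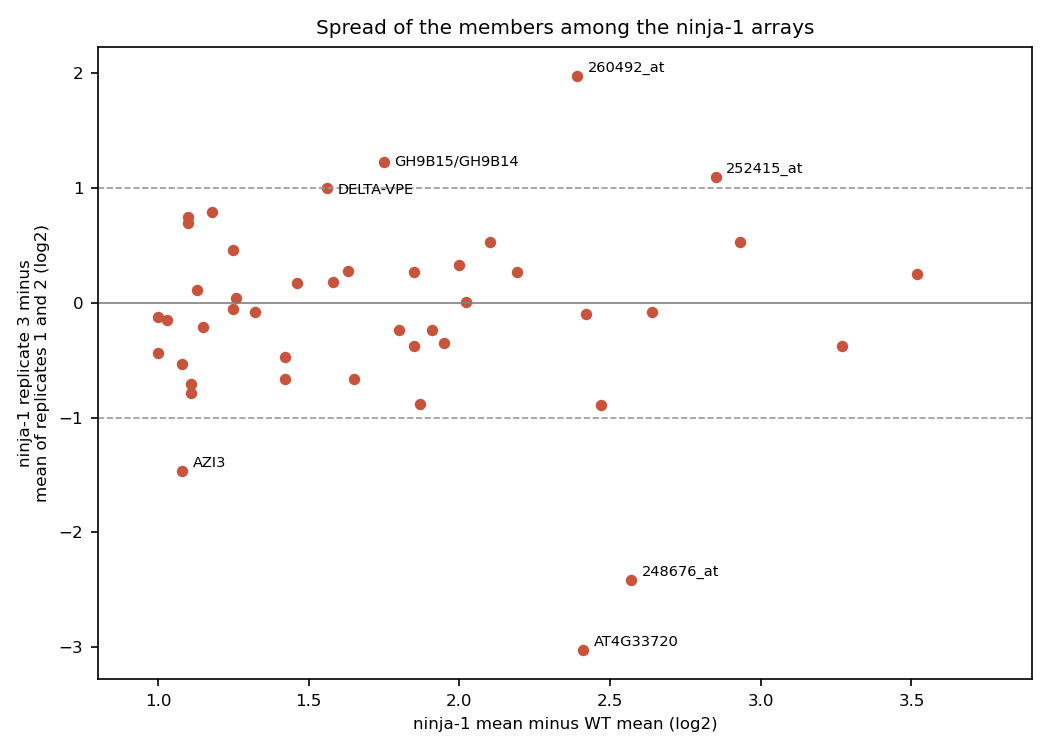
For each of the 44 members, the value of *ninja-1* replicate 3 minus the mean of replicates 1 and 2 (log2, vertical axis) against the difference between the genotype means (log2, horizontal axis). Dashed lines mark 1 and -1; the 7 named points lie at or beyond them, from -3.03 for AT4G33720 to 1.98 for 260492_at.

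The limits of the rule fell within a continuum of values. Just inside the limit on the WT mean were 252415_at (3.95) and 250475_at (3.94), and just outside it the peroxidase gene AT1G49570 (WT mean 4.03, *ninja-1* mean 6.08) and 250007_at (4.11 and 5.28). AT1G49570 had 7.04, 6.52 and 4.69 in *ninja-1*, with replicate 3 lowest, as in AT4G33720. Just inside the limit on the difference were AT5G22580 and AT3G50280, each at 1.00. Just outside it were AT5G61290, for a flavin-containing monooxygenase (WT mean 2.14, *ninja-1* mean 3.14), and AT4G23590, for a protein of the tyrosine aminotransferase family (3.94 and 4.91). Only 2 probe sets met both limits but overlapped between the genotypes, 246884_at and AT5G22555, and in both replicate 3 of *ninja-1* was level with the highest WT array. AT5G22555 read 2.22, 2.19 and 2.19 in WT and 3.80, 3.93 and 2.22 in *ninja-1*.

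The same rule turned around, with a *ninja-1* mean under 4 and every WT array above every *ninja-1* array by means that differ by at least 1, was met by 19 probe sets, or 0.222% of the 8549 with a *ninja-1* mean under 4. Their median difference was 1.37, with 4 of them at least 4-fold lower in *ninja-1*, against a median of 1.85 and 22 at least 4-fold higher among the 54 that met the rule as written. The difference between these counts was not tested.

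**Figure D3:**
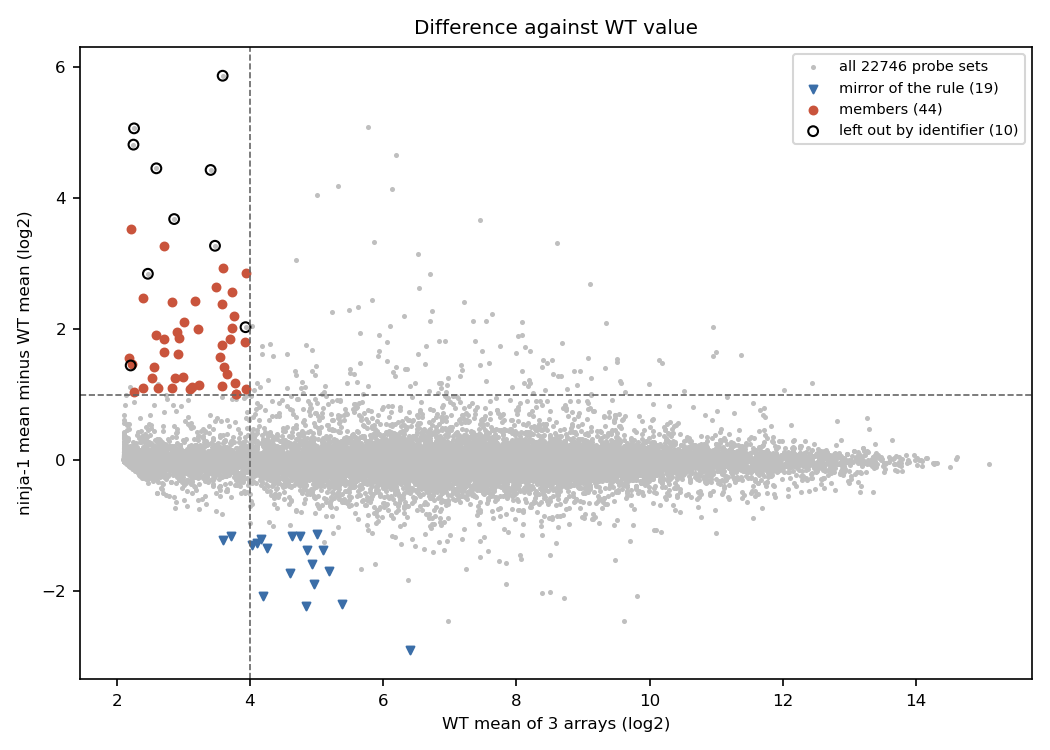
The *ninja-1* mean minus the WT mean (log2, vertical axis) against the WT mean (log2, horizontal axis) for all 22746 probe sets (grey), with the 44 members in red, the 10 probe sets left out by identifier as open circles and the 19 of the mirrored rule as blue triangles. Dashed lines mark the limits of 4 and 1; the members occupy the upper left field by construction.

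The named members are scattered over the genome: 1 of the 18 lies on chromosome 1, 5 each on chromosomes 2 and 3, 4 on chromosome 4 and 3 on chromosome 5. Of the 46 positions next to a protein-coding member in gene order, 18 hold a gene that could be read under its own name, none of them a member. In 16 of these 18 the difference lay between -0.31 and 0.13. However, 10 of the 18 had a WT mean under 4, most of them at or near the floor in both genotypes. The exceptions were AT2G43535 and AT3G32040, both with a WT mean above 4. Some neighbours, such as *WRKY38* beside AT5G22580, could not be read under their own name.

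AT2G43535, a defensin-like gene beside AT2G43530, was well expressed in WT (8.16, 8.31 and 7.93) and rose to 9.82, 9.86 and 9.91 in *ninja-1*, a difference of 1.73 (standard error 0.11, adjusted p = 0.0114 from limma over all probe sets). The limma adjusted p of AT2G43535 was 0.0743 without WT replicate 1 and 0.0714, 0.0812 and 0.0527 without *ninja-1* replicates 1, 2 and 3, at differences of 1.71 to 1.75. AT3G32040, beside AT3G32030, had a difference of 1.2 (standard error 0.42, adjusted p = 0.353 from limma). In limma, 112 probe sets, or 0.492% of those tested, were called higher and 11, or 0.0484%, lower, at an adjusted p under 0.05 and at least 2-fold. In contrast, AT5G02180, a transporter gene beside AT5G02170, was at 2.12 on all arrays of both genotypes. The acyltransferase genes AT3G50270 and AT3G50290 lie on either side of AT3G50280. AT3G50290 was at 2.11 on all arrays, and AT3G50270 at 2.11 on all WT arrays and at 2.11, 2.16 and 2.11 in *ninja-1*.

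Relatives of 5 named members could be read beside them. They were looked up after the values of the members had been seen. Of the JOX oxygenases, *JOX1* stayed at the floor in both genotypes (2.11), while *JOX2* was already at 7.35 ± 0.16 in WT and rose to 9.48 ± 0.07 in *ninja-1* (SD, n = 3, adjusted p = 0.00636 from limma). The limma adjusted p of *JOX2* was 0.0529 without *ninja-1* replicate 1 and 0.0536 without replicate 2, with a difference of 2.11 in both. *JOX3*, one of the probe sets left out by identifier, read 2.21, 2.22 and 2.20 in WT and 3.12, 3.73 and 4.12 in *ninja-1*. *JOX3* and *JOX4* shared the order of the *ninja-1* arrays, with replicate 1 lowest and replicate 3 highest. *JOX2* did not share it: its *ninja-1* values were 9.52, 9.53 and 9.4, with replicate 3 lowest.

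In the subgroup of *bHLH025*, *bHLH018* stayed at 2.11 on all arrays and *bHLH019* was at 2.11 in WT and at 2.44, 2.42 and 2.56 in *ninja-1* (difference 0.36, standard error 0.04, adjusted p = 0.0493 from limma), which is under 2-fold. That adjusted p was under 0.05 in only 2 of 10 alternatives, after median centring and without *ninja-1* replicate 3, and it was 0.178, 0.182 and 0.169 without WT replicates 1, 2 and 3 and 0.142 and 0.127 without *ninja-1* replicates 1 and 2. *NAI1*, the regulator of endoplasmic reticulum bodies, was at 7.39 ± 0.04 in WT and 8.08 ± 0.20 in *ninja-1* (SD, n = 3), a difference of 0.70 (standard error 0.11, adjusted p = 0.0956 from limma). The limma adjusted p of *NAI1* was 0.00939 with dim probe sets left out and 0.0316 after median centring.

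The other vacuolar processing enzymes were well above background in WT, unlike *DELTA-VPE*. *ALPHA-VPE* had a difference of -0.46 (standard error 0.06, adjusted p = 0.0695 from limma, 0.0134 with dim probe sets left out and 0.02 after median centring), *GAMMA-VPE* of -0.31 (standard error 0.10, adjusted p = 0.316) and *BETA-VPE* of 0.13 (standard error 0.06, adjusted p = 0.502). Around AT4G33720, the PR1-like gene AT4G33710 on one side was at the floor on all arrays and AT4G33730 on the other was at 7.74 in both genotypes, with a difference of -0.01 (standard error 0.11, unadjusted p = 0.966 from limma). Of the other PR1-like genes, AT4G25790 was at 7.51 ± 0.16 in WT and 8.14 ± 0.24 in *ninja-1* (SD, n = 3, difference 0.63, standard error 0.16, adjusted p = 0.22 from limma), AT4G25780 differed by -0.03 and AT5G26130 stayed at the floor. Of the cluster around *AZI3*, AT4G12530 stayed at 2.11 on all arrays, and AT4G12500 was at 2.11 in WT and at 3.15, 2.17 and 2.14 in *ninja-1*.

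**Figure D4:**
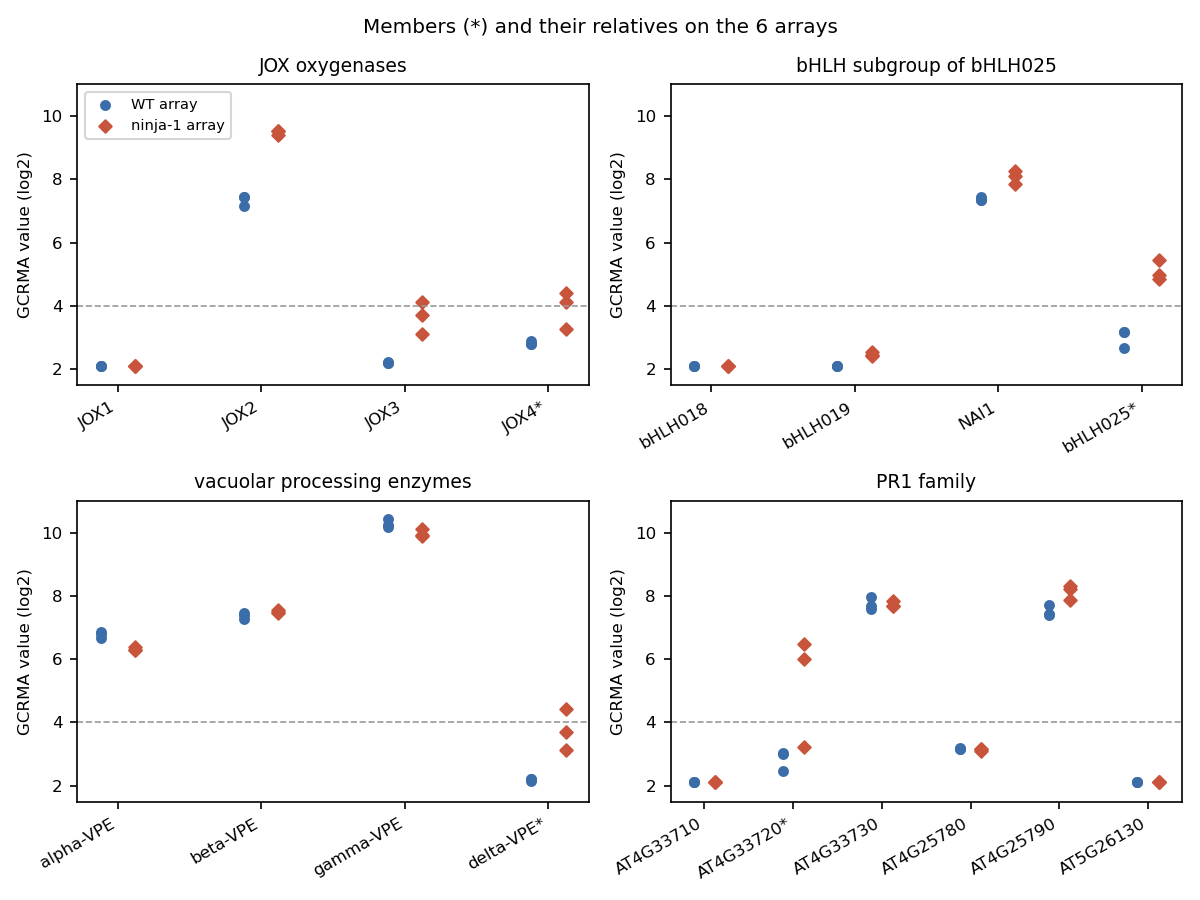
GCRMA values (log2, vertical axis) on the 3 WT arrays (circles) and 3 *ninja-1* arrays (diamonds) for members, marked with an asterisk, and their measured relatives. The dashed line marks 4. *JOX2*, *NAI1*, 3 of the vacuolar processing enzymes, AT4G33730 and AT4G25790 lie above it in both genotypes. The members *JOX4*, *bHLH025*, *DELTA-VPE* and AT4G33720 lie under it in WT, as the rule required. So do the relatives *JOX1*, *JOX3*, *bHLH018*, *bHLH019*, AT4G33710, AT4G25780 and AT5G26130.

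Of 59 genes of JA synthesis, turnover, perception, repression and response that were looked up, 12 could be read under their own name. Besides *JOX4* and *JOX3*, 10 were measured, of which 1 (*JOX2*) was called higher and 0 lower in limma, against 0.492% and 0.0484% of all probe sets, and 2 had an unadjusted p under 0.05, against 13% of all probe sets. Their median difference was 0.00, which the genes on the floor in both genotypes hold near 0. Of these 10, 5 had a WT mean under 4 and stayed at the floor in *ninja-1*: *DGL* of JA synthesis, *JMT* and *JOX1* of JA turnover, and the defence markers *PDF1.2A* and *THI2.1*. *OPCL1*, whose product is a CoA ligase of JA synthesis, differed by 0.90 (standard error 0.12, adjusted p = 0.0667 from limma, 0.00415 with dim probe sets left out and 0.0101 after median centring). No JAZ gene could be read under its own name.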

How the data were processed

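The values are log2 expression values that the authors made with GCRMA in R and deposited: background corrected from the probe sequence, arrays quantile normalized and probes of a set summarized. No GCRMA version is given in the sources used here, and no further normalization was applied. The 64 control probe sets were left out. Groups were taken from the sample labels.

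Members were found by the rule given in the report, whose choice, like that of the gene lists, was made with earlier results of these data known. Gene names came from the platform's probe annotation, updated with RefSeq genes of assembly TAIR10.1, and 13436 probe sets had a single gene. Probe sets were assigned to genes from no other source. Some common names, such as *bHLH025*, *JOX3*, *JOX4* and *AZI3*, are not in that probe annotation and were added by hand for their loci. Functions came from the paper's gene descriptions or general knowledge. No genome coordinates are given, since the values name no build. Standard errors of members come from the 3 values per genotype. Other genes were tested in limma 3.58.1 under R 4.3.3 (lmFit, eBayes, 1 term for genotype, two-sided) with Benjamini-Hochberg adjustment over all 22746 probe sets. The fit was tested on simulated data. Members given in full are the 15 with the largest difference and all named ones. Promoter motifs were planned but not analysed here. Alternatives covered the limits of the rule, centring, quantile normalization, shared probe sets, linear means, a floor of 4, eBayes settings, a filter on dim probe sets, a replicate block and leaving out each array. The number of arrays limits the precision.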

Additional observations from a re-analysis of the deposited data

How the results depend on the processing

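With a limit of 3 in place of 4 on the lower mean, 20 of the 44 members remained and 9 probe sets met the mirrored rule. At a limit of 5, 66 probe sets met the rule and 29 its mirror. With a difference of at least 1.5 the counts were 25 and 8, and with 1 probe set per singly named gene 18 and 7. All these counts for the rule leave out the 10 probe sets excluded by identifier, while those for its mirror leave out none. With all values raised to at least 4, the median difference of the members was 0.86 in place of 1.64, and 18 members still differed by at least 1. With 1 array left out, 41 to 52 probe sets met the rule, 38 to 43 of them members, 17 to 26 met its mirror, and the median difference was 1.61 to 1.75. Of the single members, 33 moved by more than the spread of their arrays under that floor of 4. None did under centring, quantile normalization or linear means. Leaving out 1 of 3 arrays cannot move a difference by that spread, so this measure does not judge the weight of single arrays. The largest such shift was a factor of 2.01, for AT4G33720 without *ninja-1* replicate 3. Other alternatives left the counts of the rule and of its mirror within 1.5 times, and the promoter motif alternative was not run.

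In limma, 170 probe sets were called higher and 58 lower with dim probe sets left out, and 170 and 40 after median centring. With 1 array left out, 33 to 83 were called higher and 3 to 12 lower: 45, 37 and 56 higher without WT replicates 1, 2 and 3, 37 and 33 without *ninja-1* replicates 1 and 2, and 83 without *ninja-1* replicate 3. With a replicate block, 0 were called in either direction, and the adjusted p in limma was 0.118 for *JOX2*, 0.148 for AT2G43535 and 0.197 for *bHLH019*. Over all alternatives it ran from 3.59e-05 to 0.118 for *JOX2*, from 0.00011 to 0.148 for AT2G43535 and from 0.0074 to 0.197 for *bHLH019*. *NAI1* (0.00939 to 0.278), *OPCL1* (0.00415 to 0.266) and *ALPHA-VPE* (0.0134 to 0.267) passed 0.05 in 2 of 11 alternatives each, with dim probe sets left out and after median centring. No pairing is described in the labels, and arrays of the same number deviated together only weakly (r = 0.0949, 0.0502 and 0.150).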
